A study of Homo sapiens with 6 samples.

Results

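A set of receptors for activins, bone morphogenetic proteins (BMPs) and TGF-beta was examined in SUM-LM1 human breast cancer cells after activin B treatment. The 10 genes were taken by gene symbol, 6 type I and 4 type II receptors of the TGF-beta family, out of 19775 genes with a named probe set. Other receptors of the family are not analysed here. All 30 probe sets that the array annotation assigned to these genes were included, and none of the 30 also carried a second gene name. A probe set is the group of short oligonucleotides whose brightness is summarised into 1 signal for a transcript.

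SUM-LM1 is a derivative of the human breast cancer line SUM159 that forms metastases in the lung. Cells were floated in ultra-low attachment plates, in serum-free HuMEC medium with albumin. Of the 6 samples, 3 received 50 ng/ml recombinant human activin B and 3 received vehicle, which was albumin in saline; both groups were collected at 6 h. The replicates are called biological in the labels. A single line, dose and time were studied, so the data hold no dose response and no later time point.

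Receptors of this family work as a complex. A dimeric ligand joins a pair of type II receptors with a pair of type I receptors, the type II kinase phosphorylates the type I receptor, and the type I receptor then phosphorylates a SMAD protein. The type I receptor sets the branch. Among the 6 examined, ACVR1B, ACVR1C and TGFBR1 act through SMAD2 and SMAD3, whereas ACVR1, ACVRL1 and BMPR1B act through SMAD1, SMAD5 and SMAD9. Activins bind ACVR2A or ACVR2B and then ACVR1B or ACVR1C, so these 4 genes encode the classical activin receptors.

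Promoter sequences are shown for ACVR2A and ACVR2B, because these close relatives with the same ligands start from DNA of very different composition. Each run holds the 250 bases before the gene start on the plus strand, taken from RefSeq on GRCh38.p14, with CG dinucleotides in capitals. The windows are chr2:147844779-147845028 for ACVR2A and chr3:38453640-38453889 for ACVR2B.
ACVR2A: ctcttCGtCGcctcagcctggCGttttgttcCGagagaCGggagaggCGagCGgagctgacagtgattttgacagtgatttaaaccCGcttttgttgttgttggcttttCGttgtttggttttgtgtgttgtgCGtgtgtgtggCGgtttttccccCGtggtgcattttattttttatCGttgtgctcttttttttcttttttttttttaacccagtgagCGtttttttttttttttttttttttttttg
ACVR2B: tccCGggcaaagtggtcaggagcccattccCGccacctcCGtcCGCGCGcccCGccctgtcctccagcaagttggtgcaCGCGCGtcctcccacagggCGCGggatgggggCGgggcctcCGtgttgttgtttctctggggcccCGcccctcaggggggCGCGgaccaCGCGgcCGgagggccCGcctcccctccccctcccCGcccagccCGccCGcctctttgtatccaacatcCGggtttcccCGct

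The ACVR2A window was 40.8% G and C with 14 CG dinucleotides, and the ACVR2B window was 74.0% G and C with 26. The median over 35116 windows of all genes was 58.0%, with 11 CG dinucleotides; 14.1% of windows had less G and C than ACVR2A and 11.6% had more than ACVR2B. Windows were found for 9 of the 10 receptors, 23 in all, and 13 of the 23 lay above that median. Windows of the same gene could differ as widely, from 44.8% to 82.8% in ACVR1B and from 40.8% to 82.0% in TGFBR1. Those of BMPR1B differed less, from 48.4% to 60.0%. The arrays do not read promoters, so these sequences describe the genes and carry no measurement.

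None of the 10 receptors passed the test for a change after 6 h of activin B. By limma, with p values adjusted over 54613 probe sets, 0 of 30 receptor probe sets were called at an adjusted p under 0.05, against 0.121% of all probe sets. The smallest adjusted p was 0.720, and a linear model without moderation called 0 of 30 as well. Counted with the brightest probe set for each gene, 0 of 10 receptors were called, against 0.192% of all genes. At an unadjusted p under 0.05 there were 3 receptor probe sets, against 5.28% of all probe sets. As RNA was taken from whole cultures, a change in the RNA of each cell and a change in the share of cells that make it cannot be told apart.

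The arrays did record a response in the same cells. ID3 and ID1, inhibitors of DNA binding that are classical targets of the SMAD1/5 branch, rose 7.21-fold and 4.77-fold (log2 change 2.85 ± 0.13 and 2.25 ± 0.11, SE; limma adjusted p = 6.81e-08 and 7.74e-08). ID2 rose 2.78-fold. SMAD7, the inhibitory SMAD that acts on type I receptors, and SKIL, a SMAD corepressor, rose 1.55-fold and 1.58-fold (adjusted p = 0.000313 and 0.00142). The call of SKIL ended when all 5 of its probe sets were averaged (adjusted p = 0.413).

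The changes in the signal of the receptor probe sets were bounded closely. Over the 30 probe sets, the log2 change lay between -0.19 and 0.19, with a median size of 0.06 against 0.05 for all probe sets. The 95% interval of every receptor probe set stayed within a log2 change of 0.5 in either direction. The same held for 54452 of all 54613 probe sets, so this bound is not particular to the receptors. In vehicle, 18 of the 30 sets lay above the median probe set and the others were dim. The bounds hold for array signal, and how far they hold for transcript amount, above all in dim sets, was not tested. The lowest interval bound was 0.797-fold, for ACVR1C, and the highest was 1.32-fold, for the TGFBR1 probe set 236561_at. For a probe set to be called, its own standard error would have required a measured change of 1.27-fold to 1.46-fold. True changes of about this size or smaller could thus be missed. Signs were mixed, with 16 positive and 14 negative changes.

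**Figure D1:**
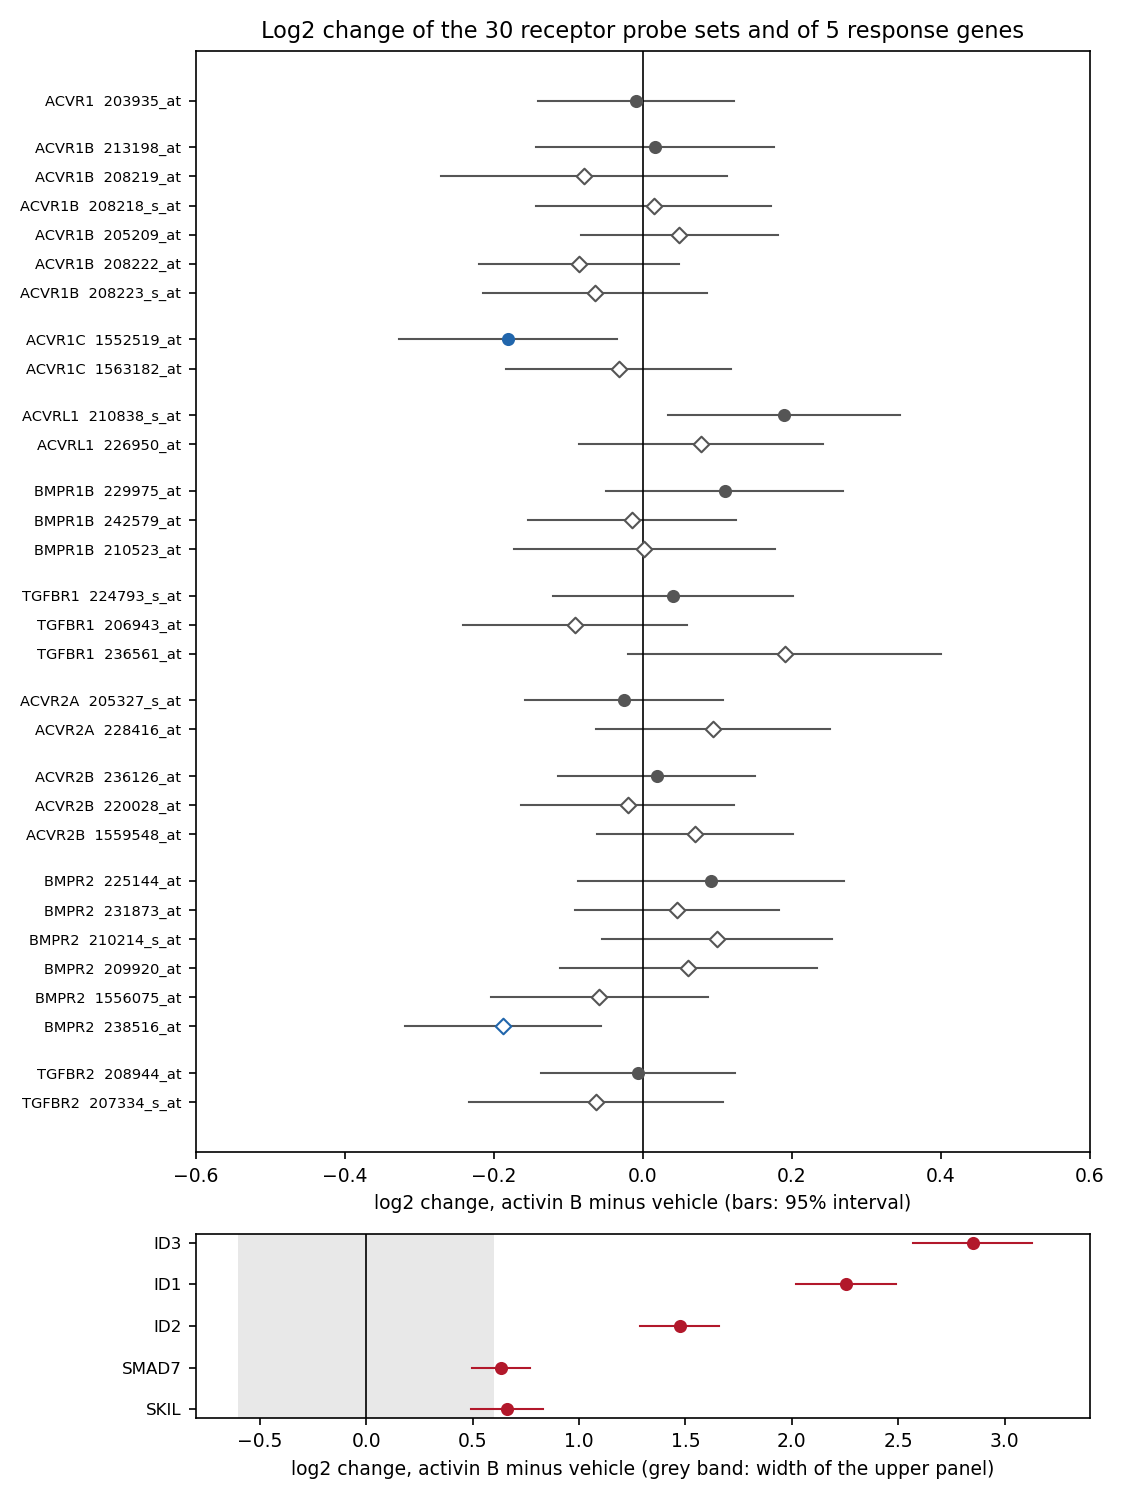
Log2 change, activin B minus vehicle, of the 30 receptor probe sets (upper panel) and of 5 response genes (lower panel), with 95% intervals from limma as bars and n = 3 arrays per group. Filled circles in the upper panel mark the brightest probe set of each gene, open diamonds the others, and blue the 2 sets whose groups did not overlap; receptor changes lie between -0.19 and 0.19, against 2.85 for ID3.

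The type II receptors for activins are given first. ACVR2A had a log2 signal of 7.62, 7.62 and 7.64 with activin B, against 7.60, 7.72 and 7.65 with vehicle. The activin B values fell inside the spread of the vehicle values, with a log2 change of -0.03 (95% interval -0.16 to 0.11). Its other probe set, 228416_at, read 7.16, 7.39 and 7.39 with activin B and 7.19, 7.28 and 7.18 with vehicle (log2 change 0.09), so the pair differed in sign and neither was called.

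ACVR2B had 7.34, 7.38 and 7.30 with activin B, against 7.37, 7.29 and 7.31 with vehicle. The groups overlapped throughout, and the log2 change was 0.02 (95% interval -0.11 to 0.15). Its 2 dimmer probe sets had changes of -0.02 and 0.07. In vehicle, the brightest sets of ACVR2A and ACVR2B stood at the percentiles 74.3 and 69.2 of all probe sets.

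ACVR1B (ALK4) is the main type I receptor of activins and was covered by 6 probe sets. The brightest read 6.97, 6.99 and 6.99 with activin B, against 6.82, 7.12 and 6.96 with vehicle. The 3 activin B arrays were nearly alike and lay between the vehicle extremes, with a log2 change of 0.02 (95% interval -0.14 to 0.18). The other 5 sets, of vehicle mean 6.25 to 6.66, all lay under the median probe set of 6.69. Across the 6 sets, 3 changes were positive and 3 negative, from -0.09 to 0.05.

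ACVR1C (ALK7) is a type I receptor for activin B and nodal that uses the same SMADs. Its brighter probe set read 7.22, 7.07 and 7.25 with activin B, against 7.42, 7.33 and 7.33 with vehicle. All activin B values lay under all vehicle values. The log2 change was -0.18 ± 0.07 (SE), or 1.13-fold lower, with an unadjusted limma p of 0.0185 and an adjusted p of 0.859. The dimmer probe set, under the median probe set, had overlapping groups and a change of -0.03. Such separation of the groups was seen in 2 of 30 receptor probe sets, both downward, against 9.79% of all probe sets.

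Leaving out single arrays, the change of ACVR1C lay between -0.22 and -0.12 and was never called (smallest adjusted p = 0.680). Over the 6 arrays, the genes with the most similar pattern to ACVR1C, the receptor with the smallest p by its brightest set, were S100A6, IPCEF1 and ERLIN1 (Pearson r = 0.994, 0.993 and 0.991). With 6 arrays, 28 of 19774 genes had an r above 0.95, so these names are a description only.

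Type I receptors of the SMAD1/5 branch fell into a bright member and others of lower signal. ACVR1 (ALK2), a BMP receptor that also binds activins, had 9.54, 9.57 and 9.50 with activin B, against 9.57, 9.49 and 9.56 with vehicle. It had the narrowest spread of the 30 probe sets, with a range of 0.08 over the 6 arrays and a log2 change of -0.01 (95% interval -0.14 to 0.12). Its single probe set stood at percentile 92.1 in vehicle.

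ACVRL1 (ALK1), the receptor for BMP9 and BMP10 that is known mainly from endothelial cells, was dim. Its log2 signal was 6.80, 6.62 and 6.79 with activin B, against 6.50, 6.48 and 6.66 with vehicle. The groups overlapped by activin B replicate 2 and vehicle replicate 3. The log2 change was 0.19 ± 0.07 (SE), with an unadjusted limma p of 0.0203 and an adjusted p of 0.874, and the other probe set had 0.08. Both sets had a vehicle mean under the median probe set.

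Endothelial markers were read beside ACVRL1. None of 9 was called, and 3 of 9 lay above the median signal. Their mean log2 signal ran from 6.58 to 6.67 in activin B arrays and from 6.64 to 6.74 in vehicle arrays. PECAM1, an adhesion molecule of endothelial cells, platelets and leukocytes, had 7.65 with activin B and 7.84 with vehicle, and its groups did not overlap (limma adjusted p = 0.874). EGFL7 and ESAM were the other markers above the median. CDH5, the cadherin of endothelial junctions, had 6.10 with activin B and 6.08 with vehicle. The part of these markers in the ACVRL1 values was not tested.

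BMPR1B (ALK6), a BMP receptor, had 6.83, 7.02 and 6.95 with activin B, against 6.72, 6.79 and 6.95 with vehicle. The groups overlapped, with a log2 change of 0.11 (95% interval -0.05 to 0.27). Its 2 other probe sets lay under the median probe set, with changes of -0.01 and 0.00.

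BMPR2, a type II receptor of BMPs, was covered by 6 probe sets that differed from each other. The brightest, 225144_at, read 8.59, 8.59 and 8.83 with activin B, against 8.62, 8.42 and 8.69 with vehicle. Its groups overlapped, with a log2 change of 0.09 (95% interval -0.09 to 0.27). Another set, 238516_at, stood little above the median probe set in vehicle, at percentile 56.2. It read 6.58, 6.64 and 6.67 with activin B, against 6.80, 6.85 and 6.80 with vehicle.

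In 238516_at, every activin B value lay under every vehicle value. The log2 change was -0.19 ± 0.06 (SE), or 1.14-fold lower, with an unadjusted limma p of 0.00815, the smallest among the receptors, and an adjusted p of 0.720. The 5 other BMPR2 sets had changes from -0.06 to 0.10, with 4 positive. With the mean of all 6 sets the change was 0.01 (adjusted p = 0.999). Which transcript form or region each BMPR2 set reads was not examined.

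The TGF-beta receptors held the brightest probe set of the family. TGFBR2, the type II receptor of TGF-beta, had 11.46, 11.51 and 11.52 with activin B, against 11.54, 11.48 and 11.49 with vehicle. The change was -0.01 (95% interval -0.14 to 0.12), and the set stood at percentile 98.3 in vehicle. A second TGFBR2 set had a mean of 7.48 ± 0.04 with activin B and 7.54 ± 0.17 with vehicle (SD, n = 3 each), 3.96 log2 units under the first in vehicle. Because oligonucleotides differ in how well they bind, this gap is not a measure of transcript amount, and neither is the order of signals among the receptors.

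TGFBR1 (ALK5), the type I receptor of TGF-beta, had 9.52, 9.49 and 9.60 with activin B, against 9.39, 9.44 and 9.66 with vehicle. The activin B values lay inside the vehicle range, with a change of 0.04 (95% interval -0.12 to 0.20). Its probe set 236561_at had the widest spread among the 30, with 6.54, 6.77 and 6.97 in activin B and 6.46, 6.51 and 6.74 in vehicle. There the change was 0.19 ± 0.10 (SE; limma adjusted p = 0.959). It was 0.08 without activin B replicate 3 and 0.30 without activin B replicate 1, so single arrays moved it by over 1.5 times.

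**Figure D2:**
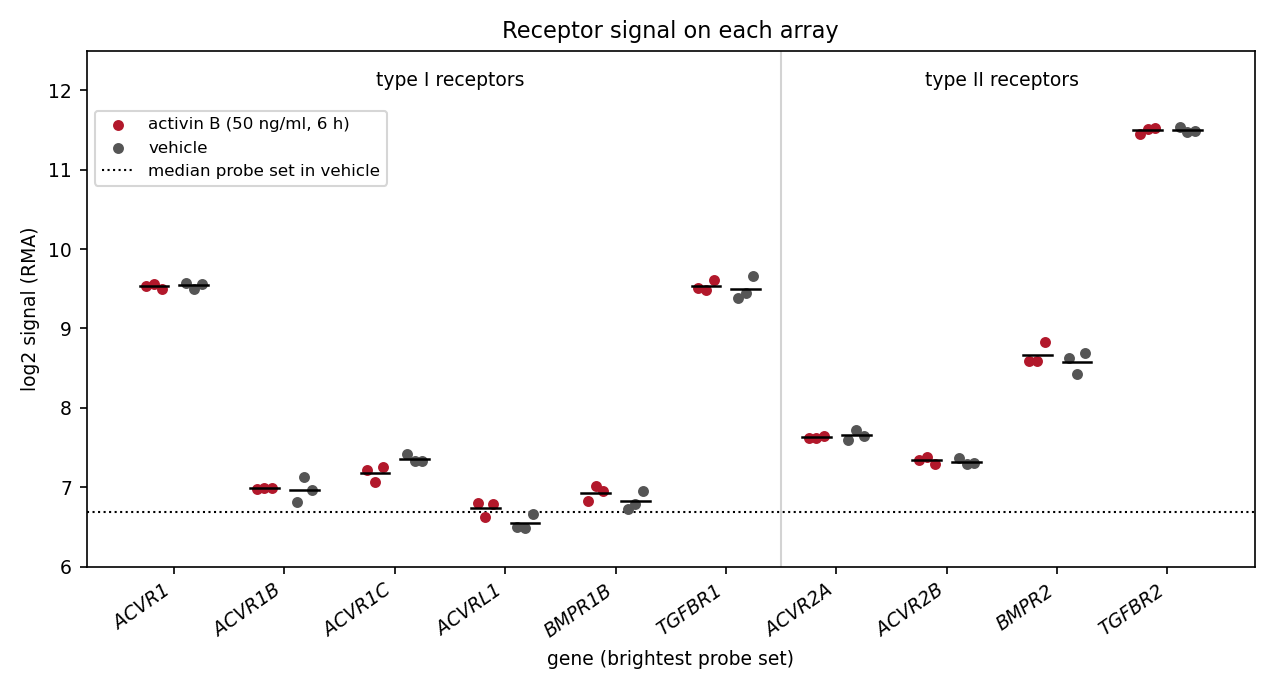
Log2 signal on each array for the brightest probe set of the 10 receptor genes, activin B in red and vehicle in grey, with black bars for group means (n = 3 arrays each) and a dotted line at the median probe set in vehicle (6.69). TGFBR2, ACVR1, TGFBR1 and BMPR2 stand clear of the line in both groups, and in ACVR1C alone the 3 activin B points all lie below the vehicle points.

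Signals of the receptors were thus of unequal height. In vehicle, 18 of the 30 probe sets and 9 of the 10 genes by their brightest set lay above the median probe set, ACVRL1 being the exception. Type II sets were above it more often, at 12 of 13, against 6 of 17 type I sets. This split was not tested, because sets of the same gene share their transcript. The median within-group SD was 0.09 for the receptor sets and 0.08 for all sets.

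Outside the receptors, the pathway around them changed at a few points. Of 8 measured co-receptors and decoys, BAMBI, a decoy that resembles a type I receptor without a kinase, rose and none fell. BAMBI had 7.81, 7.60 and 7.55 with activin B, against 7.19, 7.07 and 7.18 with vehicle, a clear separation. It rose 1.42-fold (log2 change 0.51 ± 0.07, SE; limma adjusted p = 0.0108), but the call ended without vehicle replicate 2 (adjusted p = 0.135). Among the remaining co-receptors, TGFBR3 (betaglycan) had 9.07 with activin B and 9.22 with vehicle (change -0.15; adjusted p = 0.934). ENG (endoglin) had 7.98 with activin B and 8.02 with vehicle (change -0.03).

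Among 20 measured genes for proteins that act on the receptors from inside the cell, SMAD7 alone rose and none fell. The list median was 0.02. SMAD6, the other inhibitory SMAD, had a log2 change of 0.32 ± 0.08, and PMEPA1, which keeps SMAD2/3 from the receptor, had 0.33 ± 0.07 (SE; limma adjusted p = 0.336 and 0.161). Ubiquitin ligases that turn over receptors had changes of 0.02 for SMURF1, 0.06 for SMURF2, 0.01 for WWP1 and -0.08 for NEDD4L, none of them called. FKBP1A, which guards the resting type I kinase, had 0.10.

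Of 6 SMAD transducers, which carry the signal of the receptors to the nucleus, 1 rose, 1 fell and 4 did not pass. SMAD9, which the BMP type I receptors phosphorylate, had 8.03, 8.04 and 7.91 with activin B, against 7.18, 7.21 and 7.29 with vehicle. Its increase was 1.70-fold (limma adjusted p = 5.38e-05), and the call was made by 1 of 2 SMAD9 probe sets. With the mean of both sets the log2 change was 0.43, against 0.77 with the brighter set, and was still called (adjusted p = 0.00623). SMAD1, a substrate of the same receptors, had 10.22, 10.38 and 10.24 with activin B, against 10.84, 10.86 and 10.71 with vehicle. It fell, to a level 1.44-fold lower (limma adjusted p = 0.00344), by 2 of 3 probe sets. SMAD2, SMAD3, SMAD4 and SMAD5 did not pass, with changes from -0.08 to 0.09.

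Genes for the ligands and for their secreted antagonists did not pass. Of 22 measured ligands and 13 measured antagonists, 0 were called, with list medians of -0.00 and -0.02. Among ligands the smallest p values were those of BMP2, a BMP, and GDF3, a nodal-related factor (change 0.30 and 0.14; limma adjusted p = 0.318 and 0.934). Among antagonists they were those of NOG, which traps BMPs, and CER1, which traps nodal and BMPs (change 0.35 and -0.17; adjusted p = 0.219 and 0.841). When single arrays were left out, NOG was called without vehicle replicate 3 only (adjusted p = 0.0455). Across the 5 lists 3 genes rose and 1 fell, where 0.101% of all genes rose and 0.091% fell; the lists were drawn up with earlier results known.

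**Figure D3:**
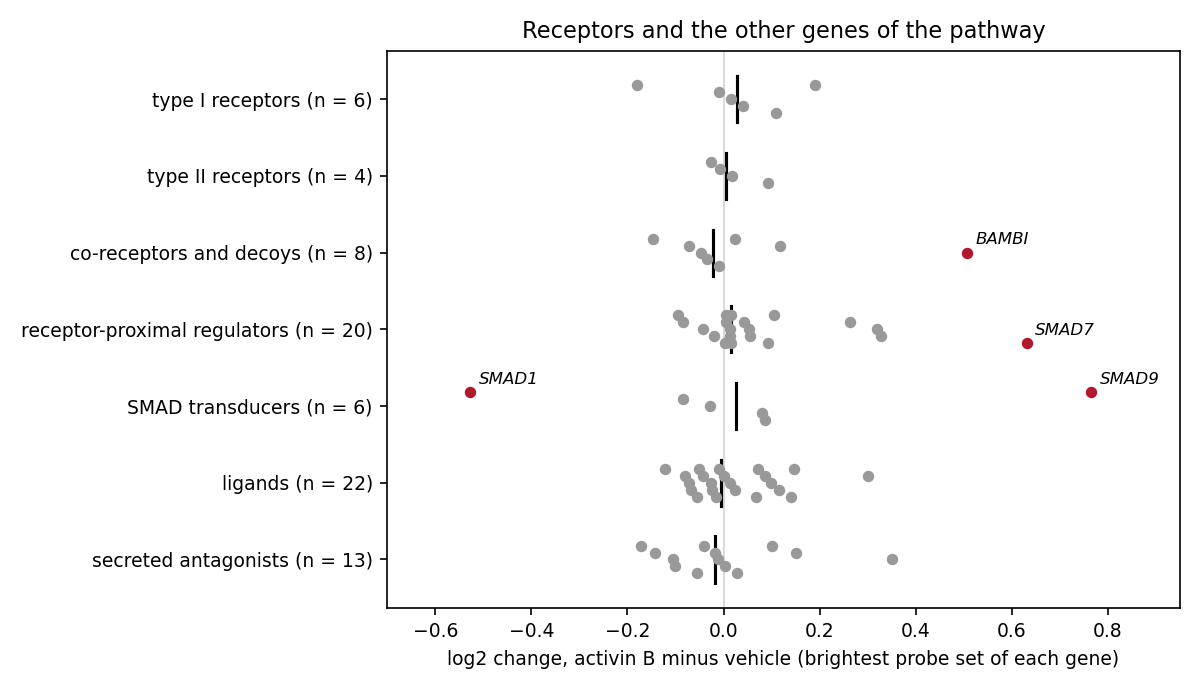
Log2 change, activin B minus vehicle, of each measured gene (brightest probe set) in the receptor lists and in 5 other lists of the pathway, with n measured genes after each name, black bars for medians, red for an adjusted p under 0.05 and grey otherwise. All receptors lie between -0.18 and 0.19, and the 4 called genes are BAMBI, SMAD7, SMAD9 and SMAD1.

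The arrays themselves were alike, with medians between 6.69 and 6.70 and a lowest correlation of 0.994. Activin B replicate 3 stood apart on the first principal component (21.7 against -10.6 to 5.70 in the others). This component held 29.5% of the variance and rose with the replicate number in both groups. Replicates 1 to 3 stood at -9.10, -1.665 and 21.7 with activin B, and at -10.6, -5.98 and 5.70 with vehicle. The source of this order was not tested. Without activin B replicate 3, 0 receptor probe sets were called and ACVR1C had a change of -0.22. Of markers listed for breast carcinoma lines, 4 of 6 epithelial and 5 of 5 mesenchymal-like ones lay above the median signal. KRT18 had 11.99 with activin B and 12.09 with vehicle, and VIM had 13.90 with activin B and 13.89 with vehicle. The epithelial markers CDH1 and EPCAM lay under the median probe set. Other lists were not all dim, with 5 of 8 fibroblast, 2 of 3 hormone receptor and HER2, and 1 of 5 leukocyte markers above the median. Among fibroblast markers, COL1A1 had 11.65 with activin B and 11.44 with vehicle, with overlapping groups (limma adjusted p = 0.914). COL3A1 went the other way, with 9.29 with activin B and 9.51 with vehicle and no overlap (limma adjusted p = 0.522). Of the 8 fibroblast markers, 0 were called.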

How the data were processed

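RNA of 6 cultures was hybridised to Affymetrix Human Genome U133 Plus 2.0 arrays. The deposited log2 values were made by the authors, who applied robust multiarray averaging (RMA) with the Chipster software; RMA takes out any change that most transcripts share. The deposited values took only 2936 to 3370 distinct levels per array, with a median step of 0.0122 to 0.0167 (log2) among dim sets, under the median SE of 0.0686; why was not given in the sources used here.

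Controls (62 sets) were left out. Probe sets were named by the platform annotation, with identifiers checked against RefSeq (GRCh38.p14). Groups were compared with limma 3.58.1 in R 4.3.3 over 54613 probe sets with Benjamini-Hochberg adjustment. Gene counts used the brightest probe set over all 6 arrays. The p values reflect only how far these samples varied. All 10 receptors were named by all their probe sets; of each other list, called genes, otherwise the 2 with the smallest p; and 5 response genes. SMURF1, SMURF2, WWP1, NEDD4L, FKBP1A, SMAD6, PMEPA1, TGFBR3 and ENG were named after their values were seen. So were the markers PECAM1, EGFL7, ESAM, CDH5, KRT18, VIM, CDH1, EPCAM, COL1A1 and COL3A1. Of 78 further pathway genes, 9 could not be matched to the annotation and are not analysed here. Members and lists were chosen with earlier results of these data known. The steps were tested on simulated data. Figures were drawn with matplotlib 3.10.9.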

Additional observations from a re-analysis of the deposited data

How the results depend on the processing

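The count of called receptor probe sets was 0 under every alternative run: blocking on the replicate, dim-set filters (17 and 7 receptor sets left), quantile normalization, median centring, cyclic loess, a trend or robust prior, array weights, an unmoderated model, looser thresholds and leaving out each array. The count of receptor genes was 0 under each of these that was run at gene level, with the mean of all probe sets of a gene and without sets marked as shared or cross-hybridising. Under the replicate block, the smallest adjusted p among receptor sets was 0.521 and 3 pathway genes rose and 1 fell, as without it. Deviations of same-numbered arrays correlated by 0.162, 0.0410 and 0.192. The highest correlations of the same activin B arrays with a vehicle array of another number were lower, at 0.0166, 0.0108 and -0.0474. The main comparison did not take the numbers as pairs, and only the replicate block allowed for them. Leaving out single arrays, 2 to 4 pathway genes rose and 1 fell. Up to 8 of 30 receptor changes switched sign when 1 array was left out, none of them called. With 3 arrays per group, a receptor probe set needed a measured change of 1.27-fold to 1.46-fold to be called. True changes of about this size or smaller could be missed.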
